A study of Homo sapiens with 8 samples.

Results

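Aldehyde dehydrogenases oxidise aldehydes to carboxylic acids with NAD or NADP as the electron acceptor. Their substrates include acetaldehyde, lipid peroxidation products, intermediates of amino acid breakdown and retinaldehyde, and high activity of some of them is used to sort stem-like cells from lung and other tumours. This account describes 10 family genes, ALDH1A1, ALDH1A3, ALDH1B1, ALDH2, ALDH3A1, ALDH3A2, ALDH3B1, ALDH7A1, ALDH9A1 and ALDH18A1, among 18244 genes measured. Each gene was represented by the probe set with the highest mean signal over the 8 arrays among those annotated to 1 gene symbol; together the 10 genes had 27 such probe sets. The genes were proposed with earlier results of these arrays known, in which ALDH1A1 and ALDH3A1 were prominent among the differences between the cell lines, so the genes count as selected on the HCC827 minus A549 values, and that comparison is described below and not tested. ALDH1A1 and ALDH3A1 passed the filter on dim genes through A549 alone, and ALDH1A3 through HCC827 and the A549 2D arrays.

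RNA came from 2 human lung adenocarcinoma cell lines, HCC827, which carries an activating EGFR mutation, and A549, which does not. Each was grown on a 3D collagen scaffold for 14 days from 100000 cells, or in 2D dishes for 7 days from 200000 cells, and received gefitinib at 1 µM, which blocks the kinase of EGFR, or no inhibitor. The drug was added on day 11 in 3D; a start on day 4, which the labels also attach to 3D, is taken here to mean 2D. Each of the 8 conditions had 1 array, so p-values below measure the spread between these arrays only. RNA of 3D and 2D cultures went through different lysis and column protocols, so culture and RNA preparation cannot be told apart. In RNA from a whole culture, fewer expressing cells and less RNA per cell cannot be told apart either.

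The EGFR gene was higher on all 4 HCC827 arrays, at 10.40 to 11.66 log2 units against 8.21 to 8.66 in A549. DUSP6, a phosphatase that ERK signalling induces, stood at 8.16 in the HCC827 3D gefitinib array against 11.48 in the 3D control array, but at 10.21 in the array labelled HCC827 2D gefitinib against 6.57 in that labelled HCC827 2D control. The 2 HCC827 2D arrays therefore go against their labels in this gene, and the line comparison and the A549 results are also given without them. The HCC827 culture difference, its mean with A549 and the interactions need these arrays and have no value without both. Of 8 lung epithelial markers 6 lay above the array median on every array, NKX2-1 did so in HCC827 only, and SFTPB on 7 arrays. Of 6 fibroblast markers COL1A2, COL3A1, DCN and PDGFRB lay below it on every array. LUM lay above it on 4 arrays, at 7.37 in HCC827 3D gefitinib, 8.47 in HCC827 2D gefitinib, 9.93 in HCC827 2D control and 7.66 in A549 2D control, and COL1A1 on the HCC827 3D arrays, at 7.47 and 7.54. The mean over the 6 was 6.48 to 6.84 on 3D arrays and 6.63 to 7.17 on 2D arrays. Of 4 endothelial markers 2, and of 5 leukocyte markers PTPRC and CD3E, lay below it on every array. Of the other leukocyte markers CD79A lay above it on all 8, CD14 on the 4 A549 arrays (8.12 to 8.30) and LYZ on the A549 3D arrays (8.14 and 7.67). The probe sets for the 3' and 5' ends of actin differed by 2.10 ± 0.47 on 3D arrays and -0.10 ± 0.04 on 2D arrays (SD, n = 4 each; exact permutation test over 70 splits, two-sided, p = 0.0286, which is the smallest possible), a measure that grows as RNA is shortened.

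The first question was how the family differs between the lines. ALDH1A1 and ALDH3A1 were near the top of the signal range in A549 and below the array median on every HCC827 array, while ALDH1A3 had the opposite pattern. ALDH1A1, a cytosolic enzyme that makes retinoic acid from retinaldehyde, had log2 signals of 6.70 (3D gefitinib), 6.53 (3D control), 6.33 (2D gefitinib) and 6.55 (2D control) in HCC827, against 13.70, 13.80, 14.17 and 13.87 in A549 in the same order. ALDH3A1, which oxidises aromatic and medium-chain aldehydes and is abundant in the cornea, had 6.62, 6.53, 6.38 and 6.39 in HCC827, against 13.99, 14.10, 13.37 and 13.58 in A549. The lines did not overlap for either gene, and within a line the values of ALDH1A1 lay within a range of under 1 log2 unit in every culture and treatment. The difference of means was -7.36 for ALDH1A1 and -7.28 for ALDH3A1, the largest and second largest deficits of HCC827 among 11926 genes, which is 164-fold and 155-fold higher signal in A549. These folds set a bright signal against one below the array median, so they are no measure of the ratio of RNA.

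ALDH1A3 is the other retinaldehyde dehydrogenase of the 10, and it is the form often reported in ALDH-high tumour cells. Its signal was 12.20 (3D gefitinib), 10.60 (3D control), 11.86 (2D gefitinib) and 12.41 (2D control) in HCC827, against 7.07, 7.21, 7.39 and 7.54 in A549. HCC827 was thus higher in 4 of 4 pairs of arrays of the same culture and treatment, by 3.39 to 5.13, with a mean of 11.77 ± 0.81 in HCC827 and 7.30 ± 0.21 in A549 (SD over 4 arrays that differ in culture and treatment). ALDH1A3 was the 17th largest excess of HCC827 among the 11926 genes. All 4 of its probe sets were higher in HCC827, by 2.19 to 4.46, and all 3 of ALDH1A1 were lower, by -7.67 to -7.36.

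**Figure D1:**
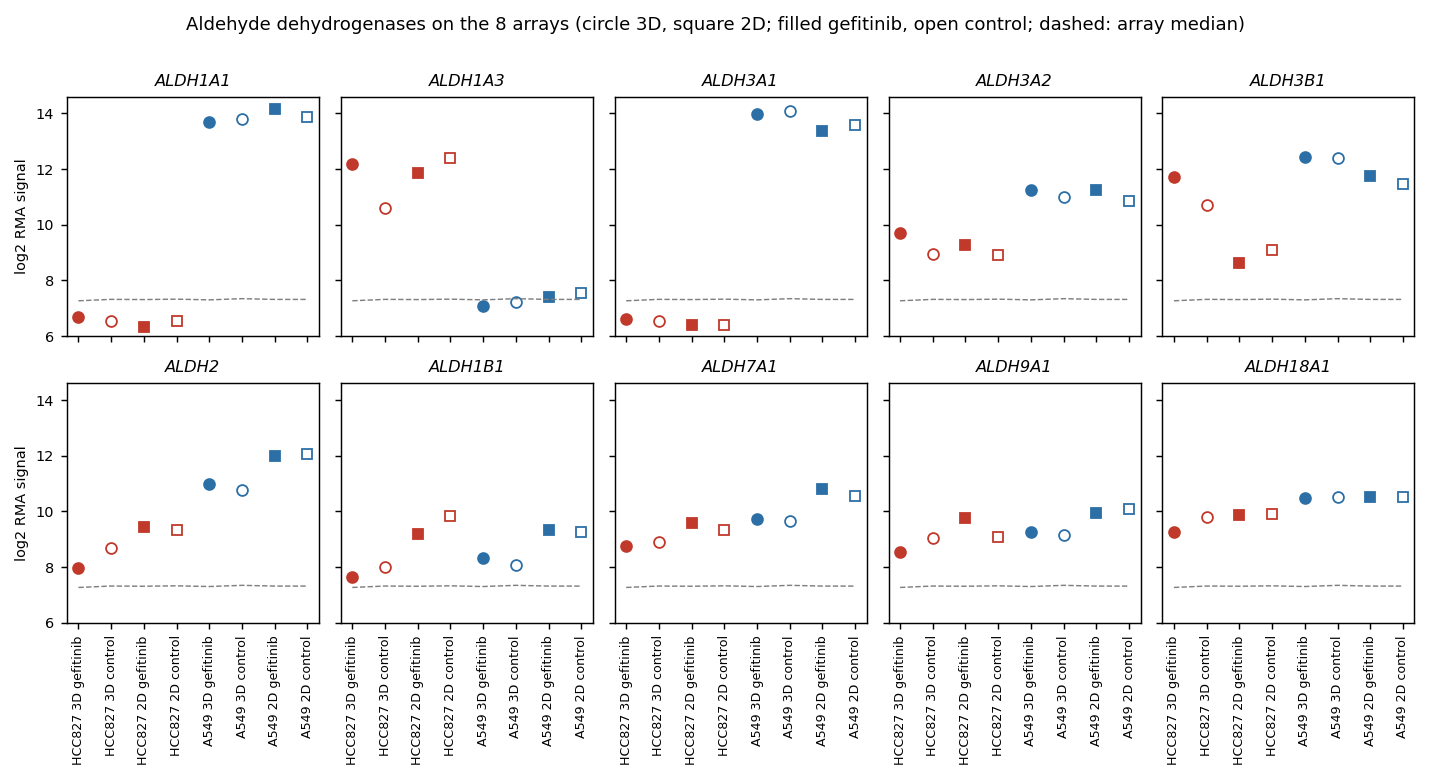
Log2 RMA signal (vertical axis) of the 10 genes on the 8 arrays (horizontal axis, HCC827 in red and A549 in blue; 1 array per point). ALDH1A1 and ALDH3A1 lie below the dashed array median in HCC827 and above 13 in A549, ALDH1A3 lies above 10.6 in HCC827 and below 7.6 in A549, and the other genes lie between these extremes.

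The promoters of the 2 retinaldehyde dehydrogenases are shown because the genes had opposite patterns in the lines. They run from 250 bases before to 50 bases after the RefSeq transcript start on GRCh38.p14, 5′ to 3′ on the strand of the gene: chr9:72953004-72953303, minus strand, for ALDH1A1 and chr15:100879581-100879880, plus strand, for ALDH1A3. Capitals mark the CCAAT box, with these letters, and the GC box, spelled GGGCGG, both searched on either strand. The TATA box, spelled TATAAA, was searched too. So was the AP-1 site, spelled TGANTCA in the search, and the antioxidant response element, spelled TGACNNNGC; no match to these 3 was in the windows.
ALDH1A1: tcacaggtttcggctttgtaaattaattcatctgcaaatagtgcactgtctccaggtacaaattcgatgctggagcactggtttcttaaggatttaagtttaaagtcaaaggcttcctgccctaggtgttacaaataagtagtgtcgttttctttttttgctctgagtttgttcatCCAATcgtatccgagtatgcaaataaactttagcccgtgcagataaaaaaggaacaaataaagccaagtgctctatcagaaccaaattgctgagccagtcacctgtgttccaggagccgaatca
ALDH1A3: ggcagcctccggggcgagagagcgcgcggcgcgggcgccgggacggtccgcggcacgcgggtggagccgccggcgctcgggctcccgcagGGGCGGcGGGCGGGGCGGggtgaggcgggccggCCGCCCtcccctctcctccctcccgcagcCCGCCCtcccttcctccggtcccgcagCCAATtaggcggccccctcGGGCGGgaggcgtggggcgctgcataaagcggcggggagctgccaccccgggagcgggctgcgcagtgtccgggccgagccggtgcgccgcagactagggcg
The ALDH1A1 window was 40.3% G and C and the ALDH1A3 window 81.7%, against a median of 58.7% over 35116 promoters of this length. Both held 1 CCAAT, starting 74 bases before the transcript start in ALDH1A1 and 71 in ALDH1A3, a motif present in 34.6% of all promoters. ALDH1A3 also held GGGCGG 6 times, 2 of them overlapping by 1 base, and ALDH1A1 held none; 45.0% of all promoters have at least 1. These matches are descriptions of the letters and say nothing about binding in these cells. The table matched 8 of the 10 genes by symbol; ALDH2 and ALDH3A1 were not matched.

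The remaining genes differed less between the lines, and most were lower in HCC827. ALDH2, the mitochondrial enzyme that clears acetaldehyde, had 7.95, 8.67, 9.43 and 9.32 in HCC827 (3D gefitinib, 3D control, 2D gefitinib, 2D control), against 10.97, 10.77, 11.98 and 12.04 in A549. Every HCC827 array was below every A549 array, and the means differed by -2.60. The probe set used for this gene is of a design whose probes may also bind other transcripts, and its second probe set gave -2.68. ALDH3A2, the fatty aldehyde dehydrogenase of the endoplasmic reticulum, averaged 9.21 ± 0.36 in HCC827 and 11.07 ± 0.20 in A549, a difference of -1.86 with no overlap. ALDH3B1, which acts on lipid-derived aldehydes at membranes, averaged 10.04 ± 1.43 in HCC827 and 12.01 ± 0.48 in A549. Its highest HCC827 array (3D gefitinib, 11.73) exceeded the lowest A549 array (2D control, 11.46), so the lines overlapped with the probe set used. HCC827 was still lower in 4 of 4 pairs by -3.13 to -0.69, and with the dimmer probe sets the lines did not overlap.

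Smaller differences were seen in the enzymes of amino acid and carnitine metabolism. ALDH7A1, which oxidises an aldehyde of lysine breakdown, averaged 9.14 ± 0.39 in HCC827 and 10.19 ± 0.58 in A549, a difference of -1.05 without overlap. ALDH18A1, which makes the glutamate-derived precursor of proline, averaged 9.71 ± 0.31 in HCC827 and 10.51 ± 0.03 in A549, also without overlap, but its second probe set did overlap. ALDH9A1, an enzyme of carnitine synthesis, averaged 9.10 ± 0.50 in HCC827 and 9.60 ± 0.47 in A549, and the mitochondrial ALDH1B1 averaged 8.66 ± 1.03 and 8.74 ± 0.65 in the same order. For both of these the lines overlapped. In all, 1 gene was higher and 6 were lower in HCC827 with no overlap of the 4 and 4 arrays, where 14.4% of all tested genes were higher and 18.2% lower by that criterion (32.6% in either direction). The 10 genes were proposed with this difference known, so nothing is read from their count. Their median difference was -1.46, beside -0.03 over all genes. Without both HCC827 2D arrays 1 gene was higher and 8 were lower without overlap, where 28% of all genes were higher and 28.7% lower. That setting compares HCC827 in 3D with A549 in both cultures, so line and culture are mixed in it. The differences in it were -7.27 for ALDH1A1, -7.18 for ALDH3A1 and 4.10 for ALDH1A3. ALDH3B1, at -0.80, and ALDH1B1, at -0.93, moved most. Within 3D alone the pairs gave -0.69 (gefitinib) and -1.70 (control) for ALDH3B1, and -0.68 and -0.08 for ALDH1B1.

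**Figure D2:**
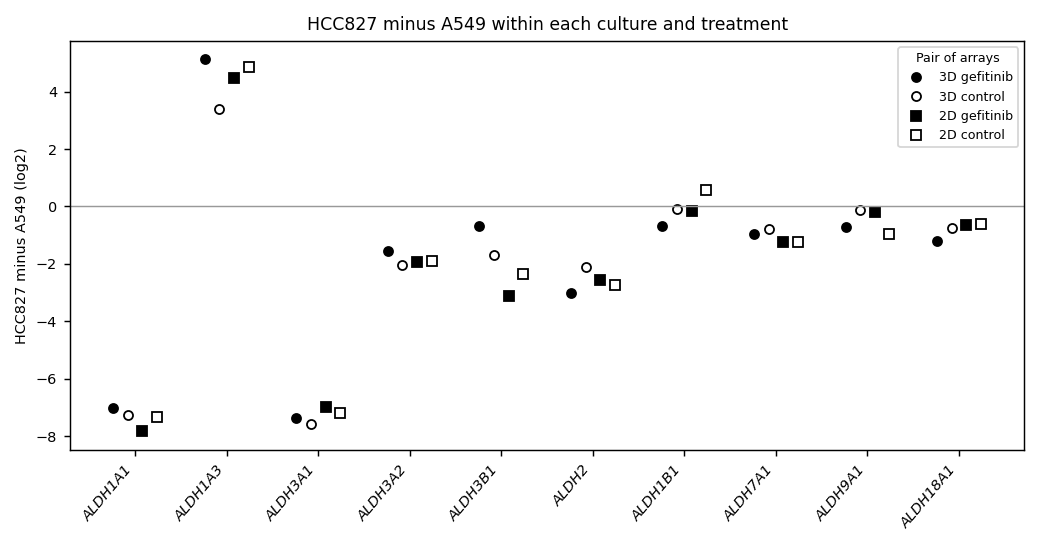
HCC827 minus A549 (log2, vertical axis) for each of the 10 genes (horizontal axis) in the 4 pairs of arrays that share culture and treatment; each point is 1 array minus 1 array. ALDH1A1 and ALDH3A1 lie between -7.83 and -6.99, ALDH1A3 between 3.39 and 5.13, and ALDH1B1 on both sides of 0.

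The other 9 human aldehyde dehydrogenase genes were measured as well. ALDH1A2, the remaining retinaldehyde dehydrogenase, lay below the array median on all 8 arrays, and so did ALDH1L1, ALDH1L2, ALDH3B2 and ALDH8A1. ALDH16A1 averaged 8.84 ± 0.31 in HCC827 and 9.53 ± 0.32 in A549 with no overlap. ALDH4A1, ALDH5A1 and ALDH6A1, mitochondrial enzymes of proline, GABA and valine breakdown, differed by -0.79, -0.51 and -0.17, and the lines overlapped in each. Thus 1 of the 4 tested genes of this group was lower in HCC827 without overlap and 0 were higher. By that criterion 18.2% of all tested genes were lower and 14.4% higher (32.6% in either direction).

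Genes around the retinoid step differed between lines at about the share seen over all genes. Of 19 tested genes of retinoid transport, metabolism and reception, 1 was higher and 5 were lower in HCC827 without overlap, where 32.6% of all genes do not overlap. These 6 are named after their values were seen. RBP4, CYP26B1, RARB and CRABP2 passed the filter on dim genes only through the line in which they were higher, so they had to differ. RDH12 passed through 2 A549 arrays only. It lay close to the array medians throughout, at 7.31 to 7.41 in A549 and 7.06 to 7.23 in HCC827. CRABP2, a retinoic acid carrier, was higher by 1.94. RBP4, the plasma retinol carrier, differed by -5.08, its receptor STRA6 by -2.31, CYP26B1, which degrades retinoic acid, by -2.18, the receptor RARB by -1.83 and RDH12 by -0.21. Of 13 tested alcohol dehydrogenases, aldo-keto reductases and related carbonyl enzymes, 0 were higher and 6 lower without overlap. Over all genes 14.4% were higher and 18.2% lower by that criterion (32.6% in either direction). Of these 6 carbonyl enzymes ADH6 passed the filter on dim genes through A549 alone, so it had to differ. Nearest profiles were sought among the tested genes outside the family, each profile centred on its own mean over the 8 arrays. Those nearest to ALDH1A1 were AKR1C2 (root mean square distance 0.35 log2 units), CA12 (0.52), NTS (0.56), AKR1B10 (0.56) and AKR1C1 (0.57). Within the family ALDH3A1 lay nearer to ALDH1A1 than these, at 0.33. Outside the family ALDH3A1 was nearest to CA12 (0.29), AKR1C2 (0.32), AKR1B10 (0.53), FGA (0.56) and UCHL1 (0.57). AKR1C1 and AKR1C2 are near-identical paralogs whose probes may share signal. ALDH1A3 was nearest to ERP27 (0.55), CLDN7 (0.56), PIP4K2C (0.58), CCN1 (0.58) and FGF13 (0.58). The distances are over 8 arrays that share the split into 2 lines, and they are given as descriptions.

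The second question was what differs between the 3D scaffold and 2D dishes. ALDH1B1, ALDH2 and ALDH7A1 fell in 3D in both lines, ALDH3B1 rose in HCC827 and ALDH3A1 rose in A549. Tests used a limma fit over all 8 arrays with line, culture, gefitinib and the interactions of line with each; its residual is the change of the gefitinib difference between cultures within a line, since no condition was repeated. As the mean over both lines 2 of the 10 genes rose and 3 fell at an adjusted p under 0.05, where 30.4% of all tested genes rose and 17.1% fell (47.5% in either direction). A share of 5 in 10 is close to that background. In HCC827 alone 1 rose and 3 fell, where 19.7% of all genes rose and 13.7% fell (33.4% in either direction), and in A549 alone 1 rose and 3 fell, where 16.3% rose and 6.01% fell (22.3% in either direction). The median of the 10 differences was -0.36, beside 0.12 over all genes.

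ALDH1B1 had the clearest fall. Its signal was 7.63 and 7.99 in HCC827 3D (gefitinib, control), against 9.17 and 9.85 in HCC827 2D, and 8.31 and 8.07 in A549 3D, against 9.32 and 9.27 in A549 2D. All 4 3D arrays were below all 4 2D arrays. The fitted difference was -1.70 ± 0.14 in HCC827 (adjusted p = 0.0106) and -1.11 ± 0.14 in A549 (0.0198; SE of the fit here and below), and both of its probe sets were below 0 in each line. ALDH2, whose values are given above, was lower on the 3D array of each of the 4 pairs, by -1.48 and -0.65 in HCC827 and -1.02 and -1.27 in A549 (gefitinib pair, control pair). The fit gave -1.06 ± 0.24 in HCC827 (adjusted p = 0.0354) and -1.14 ± 0.24 in A549 (0.0400), and both probe sets fell in each line. ALDH7A1 had 8.75 and 8.89 in HCC827 3D (gefitinib, control), against 9.59 and 9.32 in HCC827 2D, and 9.73 and 9.67 in A549 3D, against 10.82 and 10.55 in A549 2D. Its difference was -0.63 ± 0.16 in HCC827 (adjusted p = 0.0459) and -0.99 ± 0.16 in A549 (0.0262). Of its 4 probe sets, 3 were below 0 in HCC827, and the dimmest, below the array median on every array, stood at 0.40. With its probe sets averaged, the HCC827 call was lost (-0.20, adjusted p = 0.144), as it was without the filter on dim genes (0.0575) and with cyclic loess (0.0662).

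The promoters of ALDH1B1 and ALDH7A1 are shown as the matched genes that fell in both lines, with the same capitals: chr9:38392452-38392751, plus strand, and chr5:126595170-126595469, minus strand, on GRCh38.p14.
ALDH1B1: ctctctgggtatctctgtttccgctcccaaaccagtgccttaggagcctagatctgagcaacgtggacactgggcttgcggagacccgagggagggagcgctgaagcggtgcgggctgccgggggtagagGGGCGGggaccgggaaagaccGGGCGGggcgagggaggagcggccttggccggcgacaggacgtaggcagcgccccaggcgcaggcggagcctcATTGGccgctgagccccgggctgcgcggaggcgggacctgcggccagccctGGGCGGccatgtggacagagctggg
ALDH7A1: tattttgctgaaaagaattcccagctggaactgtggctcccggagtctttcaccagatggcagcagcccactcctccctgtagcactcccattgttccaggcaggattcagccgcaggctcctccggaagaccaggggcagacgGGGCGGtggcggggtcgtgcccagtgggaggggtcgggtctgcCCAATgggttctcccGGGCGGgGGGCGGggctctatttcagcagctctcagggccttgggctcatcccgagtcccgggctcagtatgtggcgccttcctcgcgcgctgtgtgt
Each held GGGCGG 3 times and CCAAT 1 time, which in ALDH1B1 is on the other strand and reads ATTGG. The TATA box, present in 11.5% of all promoters, the AP-1 site, in 7.71%, and the antioxidant response element, in 13.3%, were in neither window.

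ALDH3B1 and ALDH3A1 moved the other way. ALDH3B1 had 11.73 and 10.70 in HCC827 3D (gefitinib, control), against 8.63 and 9.11 in HCC827 2D, and 12.42 and 12.39 in A549 3D, against 11.76 and 11.46 in A549 2D. It rose by 2.34 ± 0.39 in HCC827 (adjusted p = 0.0188), as 3.10 in the pair labelled gefitinib and 1.59 in that labelled control. In A549 the difference was 0.80 ± 0.39 (adjusted p = 0.202). Its 3 probe sets disagreed: over the lines they stood at 1.57, 0.70 and -0.05, and in A549 at 0.80, 0.42 and -0.44. In HCC827 all 3 were above 0 but differed in size, at 2.34, 0.99 and 0.33. With the mean of the 3 the call over both lines was lost (0.74, adjusted p = 0.0546). ALDH3A1, with 1 probe set, rose in A549 by 0.57 ± 0.12 (adjusted p = 0.0428), a call lost without the filter on dim genes (0.0631) and with cyclic loess (0.0514). In HCC827, where it was below the array median, the difference was 0.19 ± 0.12 (adjusted p = 0.287).

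**Figure D3:**
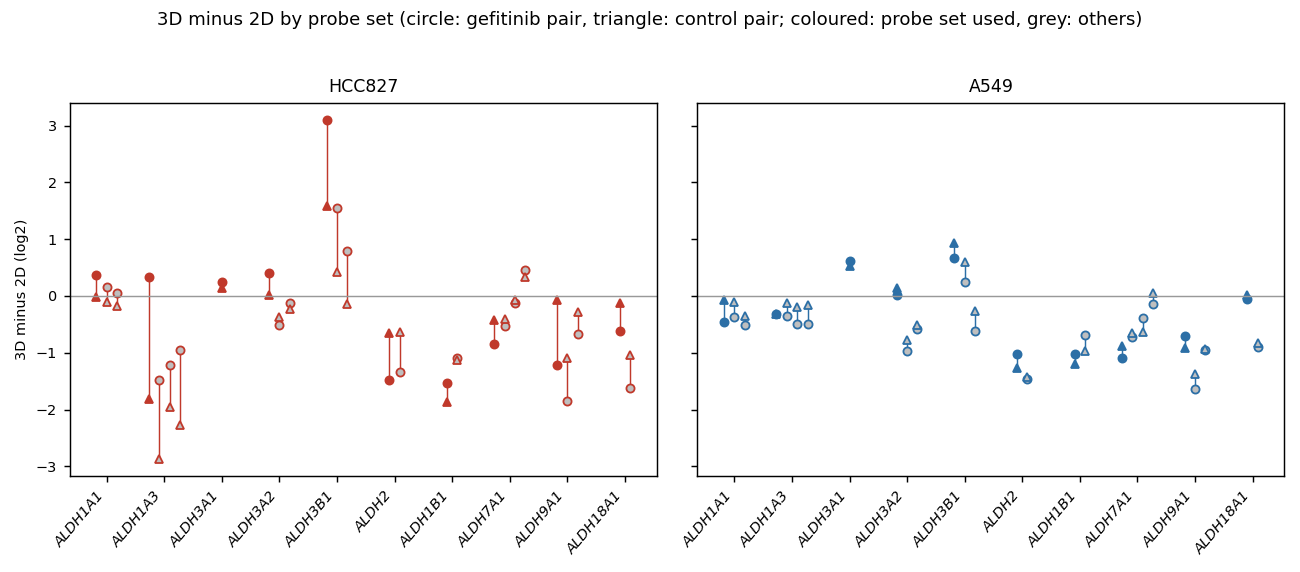
3D minus 2D (log2, vertical axis) for every probe set of the 10 genes (horizontal axis) in HCC827 and A549; circles are the gefitinib pair and triangles the control pair, each 1 array minus 1 array. Both probe sets of ALDH1B1 and of ALDH2 lie below 0 throughout, whereas the probe sets of ALDH3B1, ALDH3A2 and ALDH18A1 lie apart from each other.

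The 5 other genes did not pass in either line with the probe set used. ALDH1A1 stood at 0.17 ± 0.18 in HCC827 (adjusted p = 0.499) and -0.27 ± 0.18 in A549 (0.318), and ALDH9A1 at -0.64 ± 0.30 (0.171) and -0.81 ± 0.30 (0.125) in the same order. All 3 probe sets of ALDH9A1 were below 0 in both lines, the lowest at -1.47 in HCC827 and -1.50 in A549. ALDH1A3 in HCC827 was -1.81 in the control pair and 0.34 in the gefitinib pair as labelled (fit -0.73 ± 0.53, adjusted p = 0.335), while its 3 dimmer probe sets stood between -2.17 and -1.59 there. ALDH18A1 was -0.37 ± 0.17 in HCC827 (adjusted p = 0.164) and -0.02 ± 0.17 in A549 (0.934) with the brighter probe set, and the dimmer one stood at -1.33 and -0.86. ALDH3A2 was 0.22 ± 0.15 in HCC827 (adjusted p = 0.333) and 0.08 ± 0.15 in A549 (0.739), and its dimmer probe sets were below 0 in both lines. Of all 27 probe sets 19 were below 0 in HCC827 and 23 in A549. With probe sets averaged per gene 1 of the 10 rose and 7 fell over both lines, where 26.2% of all genes rose and 25.8% fell, so the count depends on the probe set.

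Beside all of these culture values, the actin 3' minus 5' measure was 2.64 and 2.34 in HCC827 3D (gefitinib, control), against -0.10 and -0.09 in HCC827 2D, and 1.74 and 1.67 in A549 3D, against -0.14 and -0.05 in A549 2D. Its part in the differences, and in the disagreement between probe sets of a gene, was not tested. No member passed in either line without any 1 of the 4 A549 arrays (3D gefitinib, 3D control, 2D gefitinib, 2D control). Nor did any other gene (0% of all genes), and the spread then came from HCC827 alone. The A549 differences that had passed kept their sign. Without any 1 of the 4 HCC827 arrays, or without both HCC827 2D arrays, 2 of the 10 rose and 6 fell in A549, where 41.7% of all genes rose and 22.4% fell. In HCC827 the count was 8 without its 3D control or 2D control array (64.7% of all genes) and 5 without its 3D gefitinib or 2D gefitinib array (58.3%). Among the markers, EPCAM (-1.04 over both lines, adjusted p = 0.00815) and LUM (-1.87, 0.0300) fell in 3D. NAPSA (0.93, 0.0104), NKX2-1 (0.51, 0.0321), the endothelial PECAM1 (0.37, 0.0233) and COL1A1 (0.33, 0.0176) rose. In A549 and HCC827 in turn EPCAM was -1.95 and -0.14, and LUM -1.37 and -2.37. NAPSA was 0.31 and 1.55, NKX2-1 -0.09 and 1.115, PECAM1 0.31 and 0.43, and COL1A1 0.15 and 0.505 in the same order. The part of these markers was not tested.

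Whether culture acted differently in the lines was tested as the interaction. By limma 0 of the 10 genes passed, and 0% of all genes did, with 2 of the 10 and 1696 of 11926 genes at an unadjusted p under 0.05. HCC827 minus A549 was 1.54 ± 0.55 for ALDH3B1 (adjusted p = 0.336) and -0.59 ± 0.20 for ALDH1B1 (0.321). Without the HCC827 3D gefitinib or the 2D gefitinib array 6 of the 10 passed (30.4% of all genes), and without the 3D control or the 2D control array 4 did (38% of all genes), since the spread then comes from A549 alone.

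Neighbouring pathway genes moved in both directions with culture. Over both lines 30.4% of all tested genes rose and 17.1% fell at the same threshold (47.5% in either direction). Of the other tested aldehyde dehydrogenases 1 of 4 rose and 1 fell over both lines, ALDH16A1 by 0.53 ± 0.09 (adjusted p = 0.0131) and ALDH5A1 at -0.82 ± 0.10 (0.00680). Of 19 retinoid genes 4 rose and 2 fell, led by DHRS3, a retinaldehyde reductase, at 1.85 ± 0.10 (adjusted p = 0.00418), and FABP5, a fatty acid and retinoic acid carrier, at -1.57 ± 0.29 (0.0154). Of 6 proline and glutamate genes, 2 rose and 2 fell: the proline oxidase PRODH at 2.43 ± 0.16 (adjusted p = 0.00418), PRODH2 at 0.30 ± 0.08 (0.0350), GLUD1 at -1.33 ± 0.16 (0.00686) and OAT at -1.09 ± 0.12 (0.00572). Of 13 carbonyl enzymes 1 rose and 3 fell, and of 5 lysine, betaine and carnitine genes 1 rose (AASS, of lysine breakdown, 0.71 ± 0.12, adjusted p = 0.0140) and 1 fell (TMLHE, of carnitine synthesis, -0.75 ± 0.08, 0.00593). The medians of these 5 lists lay between -0.27 and 0.06, beside 0.12 over all genes.

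The last question was the response to gefitinib. In HCC827 on the scaffold ALDH1A3, ALDH3B1 and ALDH3A2 were higher with gefitinib, and ALDH2, ALDH18A1 and ALDH9A1 were lower. With 1 array each, gefitinib minus control was 1.59 for ALDH1A3, 1.03 for ALDH3B1, 0.74 for ALDH3A2, -0.72 for ALDH2, -0.54 for ALDH18A1 and -0.49 for ALDH9A1. ALDH1A1 (0.17), ALDH3A1 (0.09), ALDH7A1 (-0.14) and ALDH1B1 (-0.36) differed less. All 4 probe sets of ALDH1A3 were higher with gefitinib, by 1.10 to 1.59, and so were all 3 of ALDH3B1, by 0.69 to 1.03, and all 3 of ALDH3A2, by 0.15 to 0.74. Both probe sets of ALDH2 and of ALDH18A1 and all 3 of ALDH9A1 were lower. A difference of at least 2-fold was seen in 2 of the 10 genes, ALDH1A3 and ALDH3B1, where 0.797% of all tested genes were higher and 3.15% lower by that much (3.95% in either direction).

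When the HCC827 2D arrays were left out of the fit, limma took the spread from A549 and assumed that the lone HCC827 arrays vary alike. This fit gave 1.59 ± 0.12 for ALDH1A3 (adjusted p = 1.69e-05), 1.03 ± 0.14 for ALDH3B1 (5.21e-04), 0.74 ± 0.12 for ALDH3A2 (0.00166), -0.72 ± 0.13 for ALDH2 (0.00304), -0.54 ± 0.12 for ALDH18A1 (0.00796) and -0.49 ± 0.13 for ALDH9A1 (0.0171). By this fit 3 of the 10 rose and 3 fell, where 6.78% of all tested genes rose and 20.4% fell (27.2% in either direction). The SD over all genes of gefitinib minus control was 0.42 in HCC827 3D, against 0.17 in A549 3D and 0.16 in A549 2D, so that assumption is doubtful and the errors may be too small. Cyclic loess scaling raised the median of all genes by 0.16 in this comparison and turned the share of higher among called genes to 59.7%, against 24.9%; ALDH18A1 (-0.28, adjusted p = 0.125) and ALDH9A1 (-0.29, 0.143) then missed the threshold, and the other 4 genes kept their calls. The actin 3' minus 5' measure was 2.64 on the gefitinib array and 2.34 on the control array, and that of GAPDH 1.57 and 0.97; their part in these differences was not tested. Of the 8 lung epithelial markers 5 fell with gefitinib in the same fit, KRT8 (-1.18), KRT18 (-1.10), KRT19 (-1.04), NAPSA (-0.59) and EPCAM (-0.52), with a median of -0.55 over the 8, and the fibroblast marker LUM rose (1.09, adjusted p = 0.00149); the part of these changes was not tested either. ALDH9A1 also missed the threshold with its probe sets averaged (adjusted p = 0.0803), and ALDH2 with its most variable probe set (0.0549).

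In 2D, as labelled, the HCC827 gefitinib array minus the control array was -0.55 for ALDH1A3, -0.47 for ALDH3B1, 0.36 for ALDH3A2, 0.12 for ALDH2, -0.04 for ALDH18A1 and 0.66 for ALDH9A1. No member differed 2-fold in 2D, where 2.36% of all genes were higher and 1.62% lower by that much (3.97% in either direction). Thus, with the probe sets used, 4 of the 6 genes had the opposite sign to the 3D pair. ALDH3A2 and ALDH18A1 had the same sign, but the second probe set of ALDH18A1 stood at 0.16 in 2D and -0.41 in 3D. For ALDH1A3 the probe sets disagreed in 2D, with 2 above 0 and 2 below, from -0.55 to 0.39. With the probe sets used, the array with the lower DUSP6 signal of each culture had the higher ALDH1A3 and ALDH3B1 signals. It was 3D gefitinib in 3D, and the array labelled control in 2D. ALDH3A2 did not follow this pattern and was higher on the array labelled gefitinib in both cultures. Averaged over cultures by the fit on all 8 arrays, 0 of the 10 genes passed in HCC827 (0% of all genes; 2 of the 10 and 487 of 11926 genes at an unadjusted p under 0.05), with ALDH1A3 at 0.52 ± 0.53 (adjusted p = 0.931) and ALDH3B1 at 0.28 ± 0.39 (0.948).

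**Figure D4:**
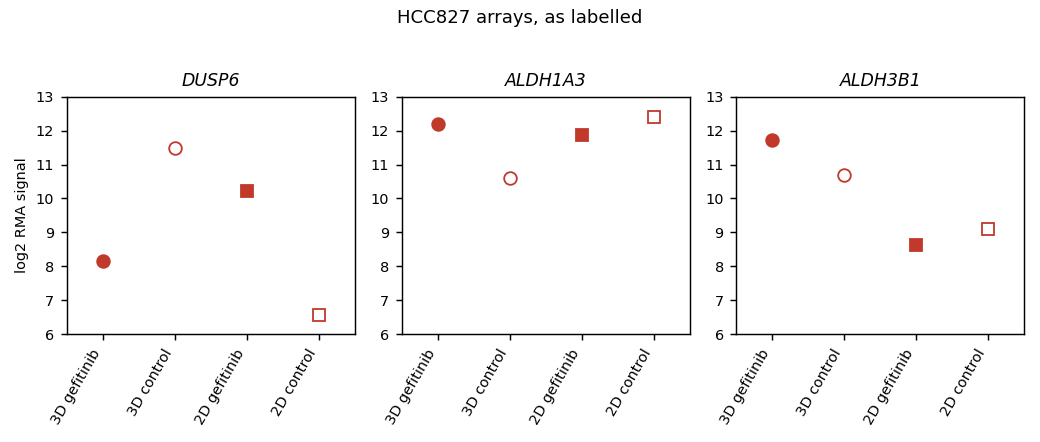
Log2 RMA signal (vertical axis) of DUSP6, ALDH1A3 and ALDH3B1 on the 4 HCC827 arrays as labelled (horizontal axis). DUSP6 is lower on the 3D gefitinib and the 2D control array of each culture, at 8.16 and 6.57. With the probe set used, both other genes are higher on those arrays than on the other array of the same culture. In 2D, 2 of the 4 probe sets of ALDH1A3 were instead higher on the array labelled gefitinib.

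In A549 the differences were small in both cultures. They ranged over the 10 genes from -0.15 to 0.27 in 3D and from -0.21 to 0.39 in 2D, and ALDH3A2 had the highest in each, with 11.25 in 3D gefitinib against 10.98 in 3D control and 11.23 in 2D gefitinib against 10.84 in 2D control. No member differed 2-fold, where 0.00839% of all genes were higher in 3D (0.00839% in either direction), and 0.00839% higher and 0.0168% lower in 2D (0.0252% in either direction). By limma 0 of the 10 genes passed in A549 (0% of all genes), and at an unadjusted p under 0.05 there were 0 of the 10 and 86 of 11926 genes. Without both HCC827 2D arrays the count was also 0. The test of whether gefitinib acted differently in the lines called 0 of the 10 genes (0% of all), with 1 of the 10 and 348 of 11926 at an unadjusted p under 0.05. Without the HCC827 2D gefitinib or 2D control array 5 of the 10 passed in that test (20.5% of all genes) and 6 in the HCC827 response (27.1% to 27.2%). Without the 3D gefitinib or 3D control array the counts were 3 (19.6% to 19.7% of all genes) and 4 (22.4%).

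**Figure D5:**
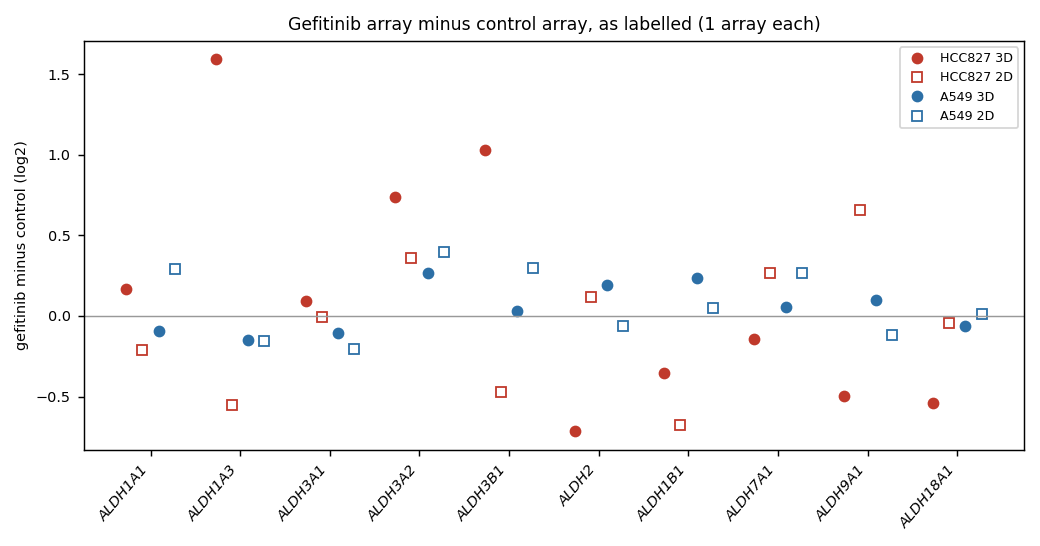
Gefitinib array minus control array (log2, vertical axis) for the 10 genes (horizontal axis) in HCC827 (red) and A549 (blue), in 3D (filled circles) and 2D (open squares), as labelled. The HCC827 3D points run from -0.72 to 1.59, and the A549 points from -0.21 to 0.39.

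Of the wider pathway lists in HCC827 3D, by the fit without the 2D arrays, the retinoid genes had 2 rises and 6 falls among 19. The largest changes were the falls of CRABP2 (-1.76 ± 0.12, adjusted p = 1.2e-05), FABP5 (-1.35 ± 0.12, 4.28e-05), RDH10, which makes retinaldehyde from retinol (-1.28 ± 0.15, 1.78e-04), and STRA6 (-0.90 ± 0.15, 0.00186). Among 13 carbonyl enzymes 2 rose and 4 fell, led by AKR1C1 (1.02 ± 0.14, adjusted p = 5.21e-04) and AKR7A2 (-0.96 ± 0.13, 4.63e-04). The other aldehyde dehydrogenases had 1 rise among 4, ALDH5A1 (0.41 ± 0.12, adjusted p = 0.0325). The proline list had 1 fall among 6, OAT (-0.72 ± 0.12, 0.00200), and the lysine, betaine and carnitine list 1 rise and 2 falls among 5. The medians of these lists lay between -0.27 and 0.25, beside -0.11 over all genes. By the same fit 6.78% of all tested genes rose and 20.4% fell (27.2% in either direction). Its errors may be too small, as given above, so nothing is read from the counts of these lists.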

How the data were processed

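Per the submitters' processing notes, the authors used R 3.2.1 and RMA, which corrects background, normalizes quantiles and summarizes probes; the deposited table holds log2 signals for 49495 probe sets on each of 8 arrays. The genome build was not given in sources used here. Array medians were 7.27 to 7.34, and the number of arrays limits the precision. The array annotation gave 45278 probe sets 1 gene symbol (1333 had several and were left out), and 45208 of these matched a RefSeq gene (GRCh38.p14, used for symbols and promoters). Of 18244 genes, 11926 were tested because at least 2 arrays had them brighter than the array's median. Differences were fitted with limma 3.58.1 in R 4.3.3 (6 coefficients, a variance trend, 2 residual and 2.36 prior degrees of freedom), with Benjamini-Hochberg adjustment over all tested genes, two-sided. The fit without the HCC827 2D arrays had 1 residual degree of freedom. The fit on all 8 arrays was run on simulated data for 3D minus 2D in each line and for gefitinib in A549. The simulation gave both lines the same spread. The fit without the HCC827 2D arrays was not simulated.

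The members, lists and tests were chosen with earlier results of these data known. Named are the 10 members, the 9 other family genes, and of each list up to 4 genes past the threshold with the largest change. EGFR, DUSP6 and the 5 profiles outside the family nearest to each of ALDH1A1, ALDH3A1 and ALDH1A3 are named too. Each condition had 1 array, so no replicate error exists.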

Additional observations from a re-analysis of the deposited data

Results flagged for a closer look

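ALDH1B1, a mitochondrial aldehyde dehydrogenase, was the 1 member whose gefitinib differences had opposite signs in all pairs of the lines: -0.36 in HCC827 3D and -0.68 in HCC827 2D as labelled, against 0.24 in A549 3D and 0.0486 in A549 2D. The interaction of line and gefitinib was -0.66 ± 0.20 for this gene (limma adjusted p = 0.997), so the difference between lines did not pass the test. With the second probe set of ALDH1B1 the A549 2D difference was -0.02, the same sign as in HCC827, so the pattern does not hold for it.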

How the results depend on the processing

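No paired analysis was possible because each condition had 1 array and the labels give no replicate numbers. With probe sets averaged per gene 8 of the 10 genes passed for 3D minus 2D over both lines (52% of all genes), against 5 (47.5%). Leaving out 1 array gave 0 to 8 members for 3D minus 2D over both lines, 0 to 8 in A549 and 0 to 8 in HCC827, 0 to 6 for line by culture, 0 to 6 for gefitinib in HCC827, 0 to 5 for line by gefitinib and 7 to 8 not overlapping between lines. For gefitinib in A549 the count was 0 throughout, for the members and for all genes. The overlap of all genes with 1 array left out was not counted, so nothing is read from the 7 to 8. Over all genes the first 6 of these counts were 0 to 8843, 0 to 7648, 0 to 7719, 0 to 4536, 0 to 3242 and 0 to 2443, against 5668, 2665, 3986, 0, 0 and 0. Without both HCC827 2D arrays, a setting chosen after seeing the data, 8 members and 7649 genes (64.1%) passed for 3D minus 2D in A549. In that setting 9 members did not overlap between lines (56.7% of all genes), with HCC827 in 3D set against A549 in both cultures. The largest-variance probe set gave 4669 genes for 3D minus 2D in A549. Of the genes called over both lines 64.0% rose, and 50.4% with probe sets averaged. The same shares of called genes were 73.1% and 54.8% in A549, and 58.9% and 44.4% in HCC827. Of 138 alternatives for single member calls other than left-out arrays, 127 kept the call, 11 lost it and 0 changed sign. Leaving out each A549 array could not be fitted for HCC827 3D alone, for want of residual degrees of freedom. Signals below the array median, as for ALDH1A1 and ALDH3A1 in HCC827, limit what can be said of differences there.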

Other observations

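ALDH3A2 and ALDH3A1 lie next to each other on chromosome 17 in the RefSeq gene order, with 1 protein-coding gene, SLC47A2, between them. Both were lower in HCC827 than in A549, by -1.86 and -7.28. ALDH3B2 and ALDH3B1 lie near each other on chromosome 11 with 2 genes between them, and ALDH3B2 was below the array median on all 8 arrays while ALDH3B1 was above it on all 8. ALDH9A1, of carnitine synthesis, had 3 of 3 probe sets below 0 for gefitinib minus control in HCC827 3D (-0.49 to -0.05) and 3 of 3 above 0 in the HCC827 2D pair as labelled (0.33 to 0.66).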
